A study of Mus musculus with 32 samples.

Results

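Splicing factors and heterogeneous nuclear ribonucleoproteins (hnRNPs) were followed here across total RNA, ribosomal pools and immunoprecipitated RNA of mouse mammary epithelial cells. The members are the probe sets annotated to 1 gene symbol that starts with Srsf, Sfrs, Sf3a, Sf3b, Snrp, Prpf or Hnrnp, with Hnrnpk left out. They number 167 of 45037 probe sets, for 58 genes. Testing was limited to probe sets with a log2 signal over 5.52 on 8 or more of the 32 arrays, a level that is the median of the whole table. This left 151 members of 57 genes, among 25432 probe sets kept in all. The 151 comprise 31 probe sets of SR proteins (9 genes), 26 of SF3 subunits (9 genes), 16 of small nuclear ribonucleoprotein (snRNP) proteins (9 genes), 28 of PRP factors (12 genes) and 50 of hnRNPs (18 genes). The 16 probe sets that were not kept include the only one of Srsf12, whose highest signal in any array was 4.05.

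The arrays came from NMuMG cells, a line of normal murine mammary gland epithelium that undergoes epithelial-mesenchymal transition under TGFβ, and from E1KD cells, a derivative in which hnRNP E1 (gene Pcbp1) is silenced. The authors describe E1KD cells as being in constitutive transition without TGFβ. Groups of 2 arrays each held total RNA, RNA of the polysomal pool and RNA of the monosomal pool (40S, 60S and 80S fractions) from E1KD cells given TGFβ2 (5 ng/ml, 24 h), untreated E1KD cells, TGFβ-treated NMuMG cells and untreated NMuMG cells, 24 arrays in all. Another 8 arrays held RNA precipitated from cytosolic extracts of NMuMG cells, 4 with hnRNP E1 antibody and 4 with IgG. The IgG arrays were 2 of TGFβ-treated and 2 of untreated cells, and the labels of the hnRNP E1 arrays disagree on treatment. The knockdown is represented by 1 derivative line, so its effect and any other difference of that line cannot be told apart. The labels call the 2 samples of a group biological replicates without saying that they were separate cultures, so the spread behind each p-value is that between these samples and may be technical.

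Introns are removed by the spliceosome, which is built on each transcript from snRNPs. The heteromers SF3a and SF3b belong to the U2 snRNP and hold it at the branch site, the Snrp genes encode the Sm core and particle-specific proteins, and the PRP factors act mostly in the U4/U6.U5 particle and the Prp19 complex. SR proteins bind exonic enhancers and promote splice site use, whereas hnRNPs coat nascent RNA and often oppose it. Many SR and hnRNP genes hold conserved alternative exons or retained introns in their own transcripts, through which their output is adjusted, so that different probe sets of 1 gene can read different isoforms.

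Replicates correlated at Pearson's r of 0.974 or more across probe sets. Pcbp1 stood at 9.55 and 9.33 (log2 signal) in total RNA of TGFβ-treated E1KD cells, 10.79 and 10.86 in untreated E1KD cells, 13.14 and 13.14 in TGFβ-treated NMuMG cells and 13.08 and 13.12 in untreated NMuMG cells. Of 13 probe sets of mammary epithelial markers 11 were kept. The epithelial keratin Krt18 lay between 14.28 and 14.72 in every array and the leukocyte marker Ptprc was not kept, while Cldn7 and 1 of the 2 Epcam probe sets, also epithelial, were not kept either. The untreated NMuMG monosomal arrays stood apart from the other fraction arrays. Their member medians were 10.20 and 10.31, against 8.52 to 9.30 on the other 14 arrays of the pools and 10.26 to 10.72 in total RNA. Their 18S ribosomal RNA control probe set read 13.45 and 13.38, against 10.27 to 11.61 on the other monosomal arrays. Their Gapdh 3′ minus 5′ control difference was 0.51 and 0.45, against -0.04 to 0.13 on the other pool arrays. Across the probe sets kept, the mean of these 2 arrays correlated with total RNA of the same cells at r = 0.932, against 0.755 to 0.896 for the other 7 pools and their own total RNA. Counts from comparisons that use these 2 arrays are given below beside counts that leave them out. The change of monosomal RNA in NMuMG cells after TGFβ has no such count.

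In total RNA 57 of the 151 members rose after TGFβ in E1KD cells, 3 fell and 91 did not pass an adjusted p of 0.05 (limma), where 11.4% of all probe sets kept were higher and 9.75% lower. The median difference was 0.34 over the members (log2, TGFβ-treated minus untreated) and -0.02 over all probe sets kept. Among the SR proteins 19 of 31 were higher and 1 lower (median 0.79), and among the hnRNPs 24 of 50 were higher and 1 lower (median 0.48). The proteins of the particles moved less, with 6 of 26 SF3 probe sets, 5 of 16 snRNP probe sets and 3 of 28 PRP probe sets higher. Among these 3 families Prpf40b alone was lower. Centred on Actb and Gapdh, which moved the median of all probe sets to 0.61 and that of the members to 0.97, 130 members were higher and 1 lower. Without either of the untreated E1KD arrays 39 or 38 members passed in place of 60.

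**Figure D1:**
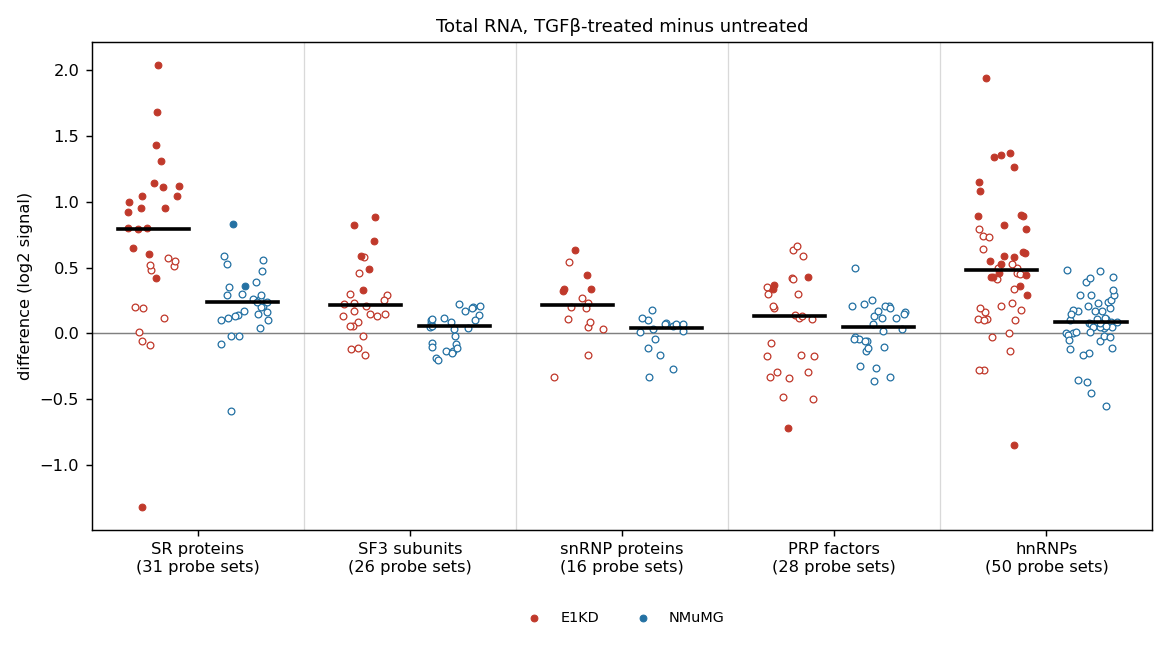
Difference in total RNA after TGFβ (log2 signal, TGFβ-treated minus untreated) for each member probe set by family, in E1KD cells (red) and NMuMG cells (blue). Filled points passed an adjusted p of 0.05 and lines are medians. In E1KD cells the SR median was 0.79 and the hnRNP median 0.48, against 0.24 and 0.08 in NMuMG cells.

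Srsf1, the archetypal SR protein (SF2/ASF), had the largest increase. Its probe set 1428100_at read 9.91 and 9.84 in TGFβ-treated E1KD cells, against 7.84 and 7.84 in untreated E1KD cells, a difference of 2.04 (standard error 0.33, adjusted p = 0.000343). A second, 1430982_at, read 11.85 and 12.04, against 10.26 and 10.26 (difference 1.68, standard error 0.29, adjusted p = 0.000601). The treated arrays lay above the untreated ones for both. Srsf1 1452430_s_at read 10.37 and 10.17 in treated and 10.23 and 10.29 in untreated E1KD cells, so that its arrays overlapped.

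Srsf2 (SC35), an SR protein of nuclear speckles, was at 10.96 and 10.86 in treated E1KD cells and at 9.58 and 9.39 in untreated E1KD cells on probe set 1415807_s_at, a difference of 1.43 (standard error 0.15, adjusted p = 5.37e-06). Hnrnpa0, an hnRNP of the A/B type, was at 11.88 and 11.89 in treated E1KD cells, against 10.50 and 10.53 in untreated E1KD cells (difference 1.37, standard error 0.15, adjusted p = 5.79e-06). Hnrnpa2b1, which encodes the abundant hnRNPs A2 and B1, rose by 1.35 on 1420365_a_at, where treated E1KD arrays read 12.72 and 12.79 and untreated ones 11.44 and 11.38. The treated and untreated arrays did not overlap for any of these probe sets. Hnrnpa2b1 also rose by 0.79 on 1434047_x_at and by 0.55 on 1433829_a_at, whereas 1433830_at differed by -0.13 and did not pass (adjusted p = 0.837). Prpf40b, a homologue of the yeast U1 snRNP factor Prp40, ran the other way at 6.57 and 6.79, against 7.36 and 7.45 (difference -0.72, standard error 0.12, adjusted p = 0.000389).

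Srsf3, the smallest SR protein, was measured by 6 probe sets that parted into 5 and 1. Their opposite directions were known from these data when the members were chosen, so the split is described here and is no separate finding. The 1438215_at probe set fell to 7.06 and 6.80 in treated E1KD cells, against 8.29 and 8.20 in untreated E1KD cells (difference -1.32, standard error 0.17, adjusted p = 4.03e-05). The other 5 rose by 0.95 to 1.14, among them 1416150_a_at, at 12.34 and 12.35 in treated and 11.36 and 11.43 in untreated E1KD cells (adjusted p = 3.79e-06). In NMuMG cells 1438215_at read 8.32 and 8.12 with TGFβ and 7.42 and 7.36 without, an increase of 0.83 (standard error 0.17, adjusted p = 0.0067). The other 5 differed there by 0.21 to 0.59, with adjusted p from 0.28 to 0.43. The 2 treated arrays lay above the 2 untreated arrays for all 6 probe sets in NMuMG cells, but for 5 of them in E1KD cells, where those of 1438215_at lay below. Treated arrays lay above untreated ones for 79 of the 151 members and 7844 of the 25432 probe sets kept in NMuMG cells. In E1KD cells this held for 115 members and 8571 probe sets. The array's annotation does not say which exons a probe set reads, and the isoforms behind these values were not analysed here.

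Hnrnpdl, a relative of the AU-rich element binding protein Hnrnpd, behaved likewise. Of its 7 probe sets 3 rose in E1KD cells after TGFβ, by 1.08 (1420093_s_at), 1.34 (1456698_s_at) and 1.94 (1428224_at, standard error 0.25, adjusted p = 3.15e-05). The last read 7.87 and 7.61 in treated E1KD cells, against 5.67 and 5.93 in untreated E1KD cells. Probe set 1428225_s_at fell to 9.31 and 9.32 in treated E1KD cells, against 10.11 and 10.22 in untreated E1KD cells (difference -0.85, standard error 0.11, adjusted p = 5.67e-05). The other three differed by 0.11 to 0.23 and did not pass. Hnrnpdl and Srsf3 were the only 2 of the 57 genes with probe sets called in both directions in this comparison.

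**Figure D2:**
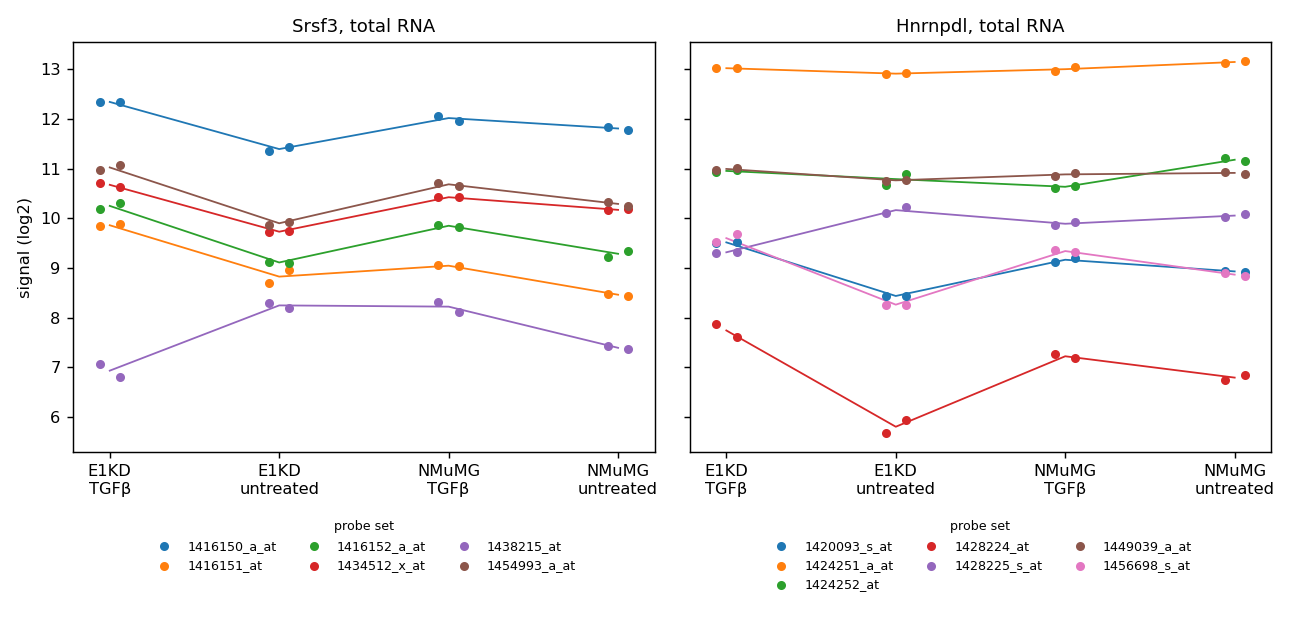
Signal (log2) of every kept probe set of Srsf3 (left) and Hnrnpdl (right) in total RNA, 1 point for each array, with lines through the group means. Srsf3 1438215_at is lowest in TGFβ-treated E1KD cells, at 7.06 and 6.80, where the other 5 probe sets of the gene are at their highest.

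The 5′ flanks of 4 of these genes are shown because each had probe sets that rose in total RNA. They are the 120 bases before the annotated start, from RefSeq (GRCm38.p6), 5′ to 3′ on the gene's strand. Capitals mark GGGCGG (the GC box), CCAAT and TATAAA, searched on both strands together with CCGGAAG and CACGTG, which are not in these 4. Hnrnpdl also had probe sets that rose, and its 120 bases, not shown, hold none of the searched patterns. For Hnrnpa2b1 the first of the 2 starts listed is shown. Srsf1 lies at chr11:88047253-88047372 (+), Srsf2 at chr11:116853095-116853214 (-), Srsf3 at chr17:29032540-29032659 (+) and Hnrnpa2b1 at chr6:51469895-51470014 (-).
Srsf1: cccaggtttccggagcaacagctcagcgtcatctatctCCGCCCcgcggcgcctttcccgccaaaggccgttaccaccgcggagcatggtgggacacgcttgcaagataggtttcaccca
Srsf2: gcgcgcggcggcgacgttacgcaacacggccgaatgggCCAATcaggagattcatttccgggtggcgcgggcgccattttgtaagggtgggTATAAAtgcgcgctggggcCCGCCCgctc
Srsf3: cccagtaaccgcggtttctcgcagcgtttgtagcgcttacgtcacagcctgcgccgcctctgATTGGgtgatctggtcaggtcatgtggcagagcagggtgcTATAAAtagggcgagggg
Hnrnpa2b1: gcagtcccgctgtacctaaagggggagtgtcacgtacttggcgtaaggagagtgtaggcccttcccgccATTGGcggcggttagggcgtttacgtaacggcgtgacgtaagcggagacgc

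Over the 250 bases before the start, 52 of the 58 member genes were matched. GGGCGG was found in 67.3% of them, against 45.8% of the 17491 genes of the table, and CCAAT in 50% against 39.5%. CCGGAAG, a core letter pattern of ETS sites, was found in 32.7% against 10.2%. TATAAA was found in 9.62% against 13.7% and the E-box CACGTG in 9.62% against 7.61%. These are matches of letters only, and the searched patterns do not overlap in the 4 flanks printed.

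In NMuMG cells 2 members were higher and none lower in total RNA after TGFβ, where 3% of all probe sets were higher and 2.43% lower. The 2 were Srsf3 1438215_at and Srsf6 1448454_at, the latter of an SR protein also known as SRp55. At an unadjusted p under 0.05 (limma) there were 16 of the 151 members, against 3789 of the 25432 probe sets kept. Srsf6 read 12.18 and 12.17 in treated NMuMG cells, against 11.88 and 11.75 in untreated NMuMG cells (difference 0.36, standard error 0.09, adjusted p = 0.033). Leaving out any 1 of the 4 arrays left 0 or 1 call. The median difference was 0.09, against 0 over all probe sets, and 0.24 over the SR proteins.

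The difference between the responses of the lines was tested as an interaction. Its median was 0.31 over the members, with 16 higher and 3 lower in E1KD cells, against 5.76% and 5.69% of all probe sets. With arrays centred on Actb and Gapdh there were 17 higher and 1 lower. Of the 16, 9 were SR probe sets and 5 hnRNP probe sets. Srsf3 1438215_at differed most, by -2.15 (standard error 0.24, adjusted p = 2.09e-05), followed in size by Srsf1 1428100_at at 1.56 and Hnrnpdl 1428224_at at 1.51. Without 1 array the count was 11 to 15 in place of 19, the lowest without replicate 1 of the treated E1KD cells, and 12 without replicate 1 of the untreated NMuMG cells.

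Untreated E1KD cells were set against untreated NMuMG cells with the same untreated E1KD arrays as the TGFβ comparison above, so that the values of the comparisons are given side by side and not as separate support. Of the members 8 were higher and 40 lower in E1KD cells, against 15.8% and 13.5% of all probe sets, with medians of -0.25 and -0.02. The summed signal of 4 immune marker probe sets moved with these groups, at 8.48 and 8.66 (log2) in untreated E1KD cells, against 7.48 and 7.23 in untreated NMuMG cells, and at 7.55 and 7.61 in treated E1KD cells. Cd68 carried this, Cd3e was kept too and both Ptprc probe sets stayed at or below 4.94 on every array, and its part in the results was not tested. The hnRNPs had 17 of 50 lower and 1 higher, and the SR proteins 11 of 31 lower and 1 higher. Without any 1 of the 4 arrays 19 to 26 members passed in place of 48, and with arrays centred on Actb and Gapdh 3 stood higher and 5 lower. Srsf1 1430982_at read 10.26 and 10.26 in untreated E1KD cells, against 11.14 and 11.46 in untreated NMuMG cells (difference -1.04, adjusted p = 0.0127). Its other named probe set 1453722_s_at was lower by 0.80 on the log2 scale. Srsf1 1452430_s_at ran the other way and did not pass, at 10.23 and 10.29 in untreated E1KD cells, against 9.94 and 10.02 in untreated NMuMG cells. Hnrnpdl 1428224_at differed by -0.99, Srsf2 1415807_s_at by -0.84 and Hnrnpu 1434391_at, of the scaffold attachment factor hnRNP U, by -0.82.

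The increases in untreated E1KD cells were led by Srsf3 1438215_at, at 8.29 and 8.20, against 7.42 and 7.36 in NMuMG cells (difference 0.86, standard error 0.17, adjusted p = 0.00104). Hnrnph3 1455491_at, of the hnRNP H family, differed by 0.61 and Prpf18, a second-step factor, by 0.53. Prpf40b differed by 0.46. For Sf3b3, a large subunit of SF3b, 1430075_at was higher by 0.54 (adjusted p = 0.0443), whereas 1415985_at was lower by 0.48 on the log2 scale (adjusted p = 0.00679). Sf3b3 and Srsf3 were the genes called in both directions.

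Of the 100 other splicing genes listed beside the members, 92 were kept with 267 probe sets. In E1KD cells after TGFβ 65 of these were higher and 17 lower, with a median of 0.17. Among them were decreases of Clk1 and Clk4, kinases that phosphorylate SR proteins. Clk1 1426124_a_at differed by -1.32 (adjusted p = 1.84e-05) and the Clk4 probe sets by -1.16 and -1.11. Sfpq, a partner of Nono in paraspeckles, rose by 1.02 to 1.44 on 3 probe sets, and Lsm6, of the U6 snRNA ring, by 1.14 and 1.44. In untreated E1KD against untreated NMuMG cells 12 of the 267 were higher and 46 lower.

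Polysomal RNA was set against total RNA of the same cells, which leaves out the monosomal arrays. The pools were made from cytosolic extracts and total RNA was not, so RNA of the nucleus enters only the total. Most members stood lower in polysomes in each of the 4 conditions. The median polysomal minus total difference was -1.33 in TGFβ-treated E1KD cells, -0.90 in untreated E1KD cells, -1.38 in TGFβ-treated NMuMG cells and -1.53 in untreated NMuMG cells. Over all probe sets kept the medians were -0.02 to -0.04. In treated E1KD cells 15 members were higher and 117 lower, against 32.3% and 37.7% of all probe sets. In untreated E1KD cells 18 were higher and 107 lower (30.9% and 36.9%), in treated NMuMG cells 17 and 123 (35.2% and 39.5%), and in untreated NMuMG cells 13 and 127 (37.7% and 41.8%).

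These 4 comparisons share no arrays. In each of them 104 of the 151 members (68.9%) were lower, against 26.2% of all probe sets, and 8 members (5.3%) were higher, against 19.7%. Among probe sets with a mean signal over all arrays above 8, 79 of 114 members (69.3%) were lower in each, against 32.8% of all such probe sets, and 5 (4.39%) were higher, against 16.3%. Some members had a group with both arrays at or under 5.52, where signals have little order. Without these, 14 were higher and 104 lower in treated E1KD cells, 18 and 92 in untreated E1KD cells, 16 and 109 in treated NMuMG cells and 11 and 112 in untreated NMuMG cells. The 104 lower in every condition comprise 26 of 31 SR, 16 of 26 SF3, 4 of 16 snRNP, 21 of 28 PRP and 37 of 50 hnRNP probe sets. For 24 genes every kept probe set was among them, including Srsf1, Srsf5, Srsf6, Srsf11, Sf3b1, Sf3b3, Prpf8, Hnrnpa0, Hnrnpa2b1, Hnrnpd and Hnrnpm. For Srsf11, 1430077_at and 1439095_at were over 5.52 only on the 8 total RNA arrays, so that their direction was fixed by the filter. The same holds for Hnrnpa1 1455740_at and Prpf38b 1456506_at. The 104, their split by family and the 24 genes include such probe sets. The snRNP proteins had medians of -0.03, 0.37, -0.01 and -0.33 in the 4 conditions in the order above, against -1.85, -1.51, -1.48 and -1.53 for the SR proteins. The other splicing genes had medians of -0.82, -0.59, -1.07 and -1.28. The balance of calls depended on the scaling. Centred on the median of the probe sets kept, 29 were higher and 96 lower in treated and 36 and 82 in untreated E1KD cells, and 25 and 102 in treated and 22 and 99 in untreated NMuMG cells. Centring on Actb and Gapdh left 1 higher and 149 lower in treated E1KD cells, 1 and 134 in untreated E1KD cells, 1 and 138 in treated NMuMG cells and 3 and 133 in untreated NMuMG cells.

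**Figure D3:**
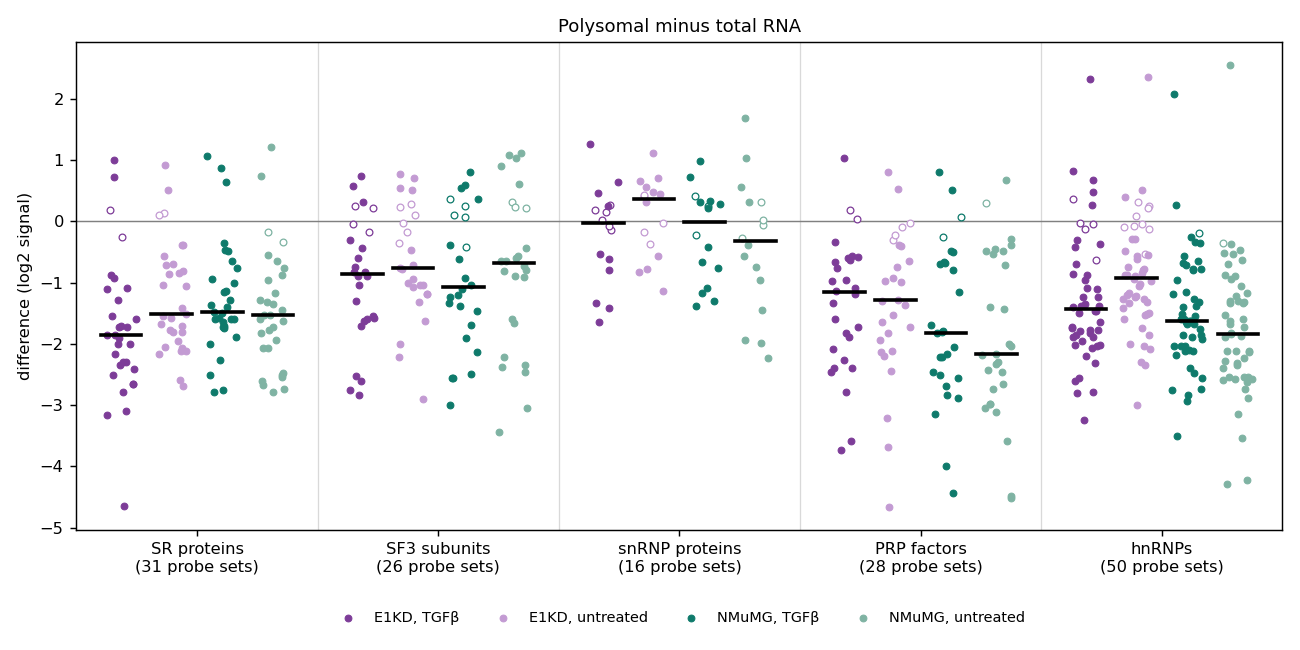
Polysomal minus total RNA (log2 signal) of each member probe set by family, with TGFβ-treated and untreated E1KD cells and TGFβ-treated and untreated NMuMG cells from left to right in each family. Filled points passed an adjusted p of 0.05 and lines are medians. The snRNP medians lie from -0.33 to 0.37 and the SR medians from -1.85 to -1.48.

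Prpf4b, a kinase associated with the U4/U6.U5 particle, was at the low end in every condition. Its probe set 1436427_at read 5.04 and 4.60 in polysomes of treated E1KD cells, against 8.34 and 8.46 in their total RNA, and no polysomal array of any condition exceeded 5.06. Hnrnpu 1434390_at read 5.14 and 4.78, against 8.22 and 8.18, in treated E1KD cells. Its total RNA arrays were enough to keep it, and none of its polysomal arrays was over 5.52, so that its direction was fixed by the filter. Srsf1 1428100_at, whose total RNA arrays are those that rose after TGFβ in E1KD cells, read 5.20 and 5.27 in their polysomes after TGFβ, against 9.91 and 9.84 in total RNA. In untreated E1KD cells it read 5.76 and 4.54 in polysomes, so that the polysomal arrays of treated cells lay within the range of the untreated ones. Signals near 5 lie below the median of all values, so the sizes of these 3 differences are not given.

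Hnrnpab held the widest spread of any member gene in these comparisons. Its 1426114_at probe set was higher in polysomes by 2.33, 2.35, 2.08 and 2.56 in the 4 conditions, at 13.70 and 13.75 in polysomes of treated E1KD cells, against 11.37 and 11.42 in total RNA. The other 6 were lower, among them 1415914_at at 11.91 and 11.95, against 13.60 and 13.54 (difference -1.64, adjusted p = 9.48e-10). The gene encodes hnRNP A/B, an hnRNP with 2 RNA recognition motifs. Srsf2 likewise had 1 probe set higher (1427816_at, by 0.92 to 1.22) and 3 lower in every condition. Snrpn 1432096_at, of the neuronal variant of the Sm protein SmB, was higher in each by 0.98 to 1.68, and stood at 6.46 and 6.78 in polysomes, against 5.27 and 5.45 in total RNA of treated E1KD cells, which lies under the median of all values. With arrays centred on Actb and Gapdh the values of treated E1KD cells turned to -0.27 for Snrpn and -0.54 for Srsf2 1427816_at.

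Polysomal and monosomal RNA were then compared within TGFβ-treated cells, without the 2 arrays that stood apart. These comparisons use the polysomal arrays of the comparison with total RNA again. In treated E1KD cells 79 members were higher and 23 lower in polysomes, against 34% and 26.6% of all probe sets, with a median of 0.54 against 0.04. In treated NMuMG cells 59 were higher and 30 lower, against 27.6% and 22.1%, with a median of 0.23 against 0.02. The 2 treated NMuMG monosomal arrays had the lowest correlation of any replicates (r = 0.974), with member medians of 8.62 and 9.11. Without replicate 1 of them 45 members were higher and 37 lower, and without replicate 2 73 and 28. Centring on Actb and Gapdh made the count 79 higher and 13 lower in treated NMuMG cells. In both lines 54 members (35.8%) were higher, against 22.9% of all probe sets, and 20 (13.2%) were lower, against 16.6%. The 54 comprise 27 of the 50 hnRNP probe sets and 8 of 31 SR, 7 of 26 SF3, 5 of 16 snRNP and 7 of 28 PRP probe sets.

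Hnrnpu was among the highest members in both lines. Its 1450849_at read 9.76 and 9.93 in polysomes and 7.82 and 7.73 in monosomes of treated E1KD cells (difference 2.07, standard error 0.14, adjusted p = 3.56e-09), and 8.97 and 8.86, against 6.93 and 7.36, in treated NMuMG cells (difference 1.77, adjusted p = 2.11e-08). No polysomal array overlapped a monosomal one. In total RNA of treated NMuMG cells 1450849_at stood above both pools, and polysomal minus total RNA was -2.56. Its 1423051_at differed by 2.05 and 1.75. The arrays of Hnrnpu 1434391_at overlapped in treated E1KD cells, at 6.54 and 5.99 in polysomes and 5.85 and 6.56 in monosomes. The spread of Hnrnpu, at 2.01, was the widest within a member gene in treated E1KD cells. Hnrnpdl 1449039_a_at differed by 2.04 in treated E1KD cells and 1420093_s_at by 1.92 in treated NMuMG cells. Prpf39, of the U1 snRNP, differed by 1.84 on 1428171_at and Hnrnpm by 1.75 on 1426698_a_at in treated NMuMG cells. Sf3b1, the branch site subunit, differed by 2.42 on 1418562_at and by 2.02 on 1440818_s_at in treated E1KD cells. In treated NMuMG cells its 1418562_at was higher by 1.41. There its 1418561_at went the other way, at 5.00 and 5.23 in polysomes and 5.98 and 5.72 in monosomes, with both polysomal arrays under 5.52. The spread of Sf3b1 was the widest within a member gene in that comparison, at 2.15.

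The decreases named in both lines included 3 probe sets of the Sm proteins Snrpb and Snrpd3, whereas Snrpe, Snrpf and Snrpg, other proteins of the Sm ring, were higher. Of the 16 snRNP probe sets 8 were higher and 4 lower in treated E1KD cells, and 5 and 4 in treated NMuMG cells. Snrpe differed by 0.78 in treated E1KD and 0.57 in treated NMuMG cells, Snrpf by 0.40 in each, and Snrpg 1448357_at by 0.37 and 0.54 in that order. Snrpb, the Sm protein SmB, read 10.02 and 10.26 in polysomes, against 11.67 and 11.70 in monosomes, of treated E1KD cells on 1419260_a_at (difference -1.55, standard error 0.11, adjusted p = 4.84e-09). In treated NMuMG cells the same probe set read 10.83 and 10.73, against 12.34 and 12.60 (difference -1.69, adjusted p = 2.12e-09). Its 1437193_s_at differed by -1.37 in treated E1KD cells. Snrpd3, the Sm protein SmD3, was lower on 1422885_at in both lines, where its polysomal arrays read 4.73 to 5.41. That probe set was kept almost only through the monosomal arrays, so its size is not given. Its 1449629_s_at was lower by 1.01 on the log2 scale in treated E1KD cells (adjusted p = 0.00236). The SF3 subunits Sf3a2 1455546_s_at (-1.39 in treated E1KD cells), Sf3b5 1437972_s_at (-1.35 in treated NMuMG cells) and Sf3b2 1429362_a_at (-1.54 in treated NMuMG cells) were also lower. So were Prpf19 1460633_at, of the ubiquitin ligase that gives the Prp19 complex its name, by -1.51 in treated NMuMG cells, and Hnrnpab 1448144_at by -1.68 in treated E1KD cells.

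**Figure D4:**
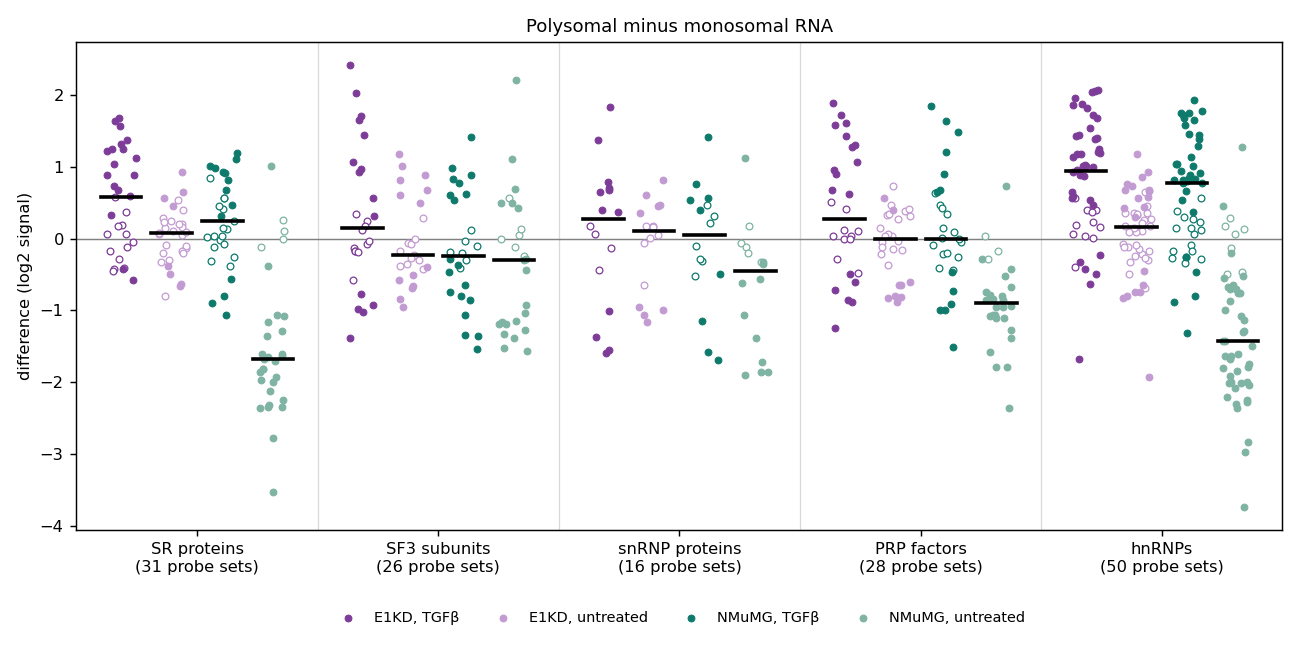
Polysomal minus monosomal RNA (log2 signal) of each member probe set by family, with TGFβ-treated and untreated E1KD cells and TGFβ-treated and untreated NMuMG cells from left to right. Filled points passed an adjusted p of 0.05 and lines are medians. The hnRNP medians are 0.94, 0.16, 0.77 and -1.42, and the last rests on the untreated NMuMG monosomal arrays that resemble total RNA.

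In untreated E1KD cells 31 members were higher and 29 lower in polysomes than in monosomes, against 16.8% and 18.2% of all probe sets, and the median was 0.05. Sf3b1 1418562_at (1.18), Hnrnpu 1450849_at (1.17), Sf3b3 1430075_at (1.01), Hnrnpdl 1449039_a_at (0.93) and Srsf5 1423130_a_at (0.92) were higher. Hnrnpab 1448144_at (-1.92), Snrpb 1419260_a_at (-1.16) and 1437193_s_at (-0.95) were lower. In untreated NMuMG cells 11 were higher and 115 lower, against 29.3% and 41.9%, with a median of -1.08 against -0.13. That comparison uses the 2 monosomal arrays that stood apart, and with total RNA in their place 13 were higher and 127 lower. Centred on the median of the probe sets kept, 27 were higher and 90 lower. The widest differences there were those of Hnrnpab 1448144_at (-3.74), Srsf1 1428100_at (-3.52), Hnrnpab 1453849_s_at (-2.97) and Srsf3 1416151_at (-2.77), leaving out Hnrnpdl 1428224_at, whose polysomal arrays read 3.59 and 4.21. Sf3a1 1449333_at (2.20), Hnrnpa1 1436549_a_at (1.27), Snrpn 1432096_at (1.12), Sf3b3 1430075_at (1.11) and Srsf2 1427816_at (1.01) were the highest.

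The change of the polysomal minus monosomal difference after TGFβ, called the polysome shift, asks whether members moved between pools. In NMuMG cells 107 members shifted towards polysomes and 17 away, against 40.1% and 30.3% of all probe sets, with a median of 1.29 against 0.09. Of the hnRNP probe sets 44 of 50 were higher, of the SR probe sets 27 of 31, and of the SF3 probe sets 9 of 26, with 10 of 26 lower. Centred on the median of the probe sets kept, 87 were higher and 28 lower. Hnrnpm 1426698_a_at (3.53), Prpf38b 1452869_at (3.43), Srsf1 1428100_at (3.39) and Hnrnpdl 1456698_s_at (3.33) were among those that shifted most towards polysomes. Sf3a1 1449333_at (-1.67), Sf3b5 1451185_at (-1.46), Sf3a2 1450576_a_at (-1.42) and Snrpn 1432096_at (-1.40) shifted the other way. Hnrnpdl 1428224_at and Snrpd3 1422885_at also passed, with pools under 5.52, and their sizes are not given. These sizes rest on the untreated monosomal arrays, and in polysomes alone the changes were 0.81, 0.65, 0.48 and 0.44 for those towards polysomes and -0.98, -0.61, -0.38 and -0.62 for the others, in the same order. Monosomal RNA of NMuMG cells had 16 members higher and 105 lower after TGFβ, against 34.3% and 41.1% of all probe sets (median -1.15 against -0.04), and 35 higher and 86 lower when centred on the median of the probe sets kept. All of these monosomal changes are measured against the 2 untreated arrays that stood apart, so no count or size without them can be given. Hnrnpc 1418693_at, of the core particle protein hnRNP C, differed most, by -2.94. Srsf1 1428100_at (-2.91), Hnrnpdl 1456698_s_at (-2.89) and Prpf38b 1452869_at (-2.78) followed. Sf3b3 1430075_at (1.12), Prpf40b (1.06), Sf3a2 1450576_a_at (1.04), Hnrnpab 1426114_at (0.93) and Sf3a1 1446687_at (0.88) were higher there.

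Polysomal RNA of NMuMG cells alone, without any monosomal array, had 48 members higher and 9 lower after TGFβ, against 18.8% and 11.3% of all probe sets, with a median of 0.27 against 0.02. The hnRNPs had 20 of 50 higher and 0 lower, the SR proteins 12 of 31 higher and 0 lower, and the snRNP proteins 7 of 16 higher and 2 lower. The SF3 subunits had 6 of 26 higher and 7 lower. Prpf39 1428171_at read 7.84 and 7.82 with TGFβ and 6.80 and 6.35 without (difference 1.26, standard error 0.18, adjusted p = 5.54e-05). Hnrnpa2b1 1433830_at read 7.20 and 7.19, against 6.06 and 5.82 (difference 1.26, standard error 0.29, adjusted p = 0.00389). Hnrnpab 1453849_s_at (1.06) and Hnrnpll 1425255_s_at (1.02) followed. Sf3a1, a subunit of SF3a, read 10.14 and 10.09 on 1449333_at with TGFβ and 10.97 and 11.23 without (difference -0.98, standard error 0.14, adjusted p = 4.84e-05). Sf3b5 1437972_s_at (-0.68), Sf3b2 1456352_a_at (-0.67), Sf3a1 1419087_s_at (-0.65) and Snrpn 1432096_at (-0.62) were also lower. Without replicate 2 of the untreated polysomal arrays 37 members passed in place of 57.

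In E1KD cells 56 members shifted towards polysomes and 4 away, against 20.9% and 7.73% of all probe sets (median 0.51 against 0.08), with 27 of 50 hnRNP and 10 of 31 SR probe sets higher. With quantile normalization 47 were higher and 10 lower, and with centring on the median of the probe sets kept 44 and 10. The polysomal pool alone gave 4 members higher and 1 lower, against 3.04% and 1.41% of all probe sets. Its median change was 0.04, whereas that of the monosomal pool was -0.42. Hnrnpdl 1456698_s_at (1.65) and 1420093_s_at (1.41), Hnrnph3 1455491_at (1.60) and Srsf1 1430982_at (1.44) were among those that shifted most. Hnrnph3 read 9.12 and 9.12 in polysomes and 7.04 and 7.30 in monosomes of treated E1KD cells, against 8.48 and 8.65 and 8.03 and 8.41 in untreated E1KD cells. Snrpc 1416197_at (-0.58), of the U1 snRNP, Prpf19 1460633_at (-0.45), Sf3a2 1455546_s_at (-0.45) and Snrpb 1437193_s_at (-0.42) shifted away.

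The shifts of the lines were compared by an interaction, in which 9 members were higher and 71 lower in E1KD cells, against 13.1% and 23.5% of all probe sets. Centred on the median of the probe sets kept, 18 were higher and 46 lower, and the polysomal pool alone gave 5 higher and 23 lower, against 6.37% and 9.52% of all probe sets. Between untreated E1KD and untreated NMuMG cells the polysomal minus monosomal difference was higher for 101 members and lower for 13, against 36.1% and 25.7%, and 83 and 23 with that centring. Both comparisons include the 2 untreated NMuMG monosomal arrays, and between the untreated lines the polysomal pool alone had 59 higher and 20 lower, against 27.5% and 22.1%.

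Binding to hnRNP E1 was read from precipitates of NMuMG cells. The titles and descriptions of the 4 hnRNP E1 arrays disagree on which were treated with TGFβ, so that the 4 were set as 1 group against the 4 IgG arrays, with treatment counted as spread. The Gapdh 3′ minus 5′ control difference was 0.05 to 0.23 on the hnRNP E1 arrays and -0.03 to 0.00 on the IgG arrays, and its part in the results was not tested. Of the members 29 were higher with the hnRNP E1 antibody and 16 lower, against 15.3% and 13.3% of all probe sets, and both medians were -0.01. With a treatment term in the fit 25 were higher and 12 lower when treatment was taken from the titles. Taken from the array number, the counts were 33 and 24. Correlations between the hnRNP E1 arrays followed the array number and not the title. They were 0.995 between the arrays numbered 13 and 0.996 between those numbered 14, against 0.985 to 0.988 across numbers. The kept Fn1 probe set, of a mesenchymal marker, read 9.34 and 9.6 on arrays 13 and 7.56 and 7.31 on arrays 14. With IgG it read 9.29 and 9.34 after TGFβ and 8.18 and 8.02 without. The fit by title put 1 array of each number in each treatment. The families differed in their counts. Of the SF3 subunits 11 of 26 were higher and 1 lower, and of the PRP factors 8 of 28 were higher and 1 lower. Of the SR proteins 2 of 31 were higher and 10 lower. No snRNP probe set of 16 passed in limma, and 3 had an unadjusted p under 0.05. The hnRNPs had 8 of 50 higher and 4 lower. Centring on Actb and Gapdh, which shifts the median of all probe sets to -0.52, left 0 members higher and 98 lower, and centring on the median of the probe sets kept 23 and 21, so the directions are relative to the bulk of the probe sets.

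Prpf3, a protein of the U4/U6 snRNP, read 9.59, 9.92, 10.11 and 9.69 with hnRNP E1 antibody, against 9.07, 9.03, 8.98 and 8.95 with IgG (difference 0.82, standard error 0.11, adjusted p = 0.000847). Prpf4, its partner, read 9.71, 9.79, 9.96 and 9.79 on 1429724_at, against 9.07, 9.09, 9.09 and 9.06 (difference 0.73, standard error 0.07, adjusted p = 0.000234). Prpf6, a bridge of the same particle, differed by 0.75 on 1424036_at. Sf3b3 1415985_at read 11.45, 11.23, 11.61 and 11.22, against 10.59, 10.56, 10.56 and 10.69 (difference 0.78, standard error 0.10, adjusted p = 0.00062), and Sf3b2 1429362_a_at differed by 0.76. All hnRNP E1 arrays lay above all IgG arrays for these 5. The arrays overlapped for Prpf4 1438481_at, at 6.14, 5.88, 6.14 and 6.25, against 6.02, 6.15, 5.99 and 6.33. They also overlapped for Sf3b3 1430075_at, at 5.70, 5.86, 5.76 and 5.53, against 6.13, 5.71, 5.73 and 5.62.

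Srsf10 (SRp38), an SR protein that acts as a repressor when dephosphorylated, was lower on all 4 of its probe sets. Its 1449121_at read 8.51, 8.54, 8.12 and 8.75 with hnRNP E1 antibody, against 9.21, 9.33, 9.39 and 9.31 with IgG (difference -0.83, standard error 0.12, adjusted p = 0.00123). The others differed by -0.67, -0.54 and -0.36. Hnrnpul2 differed by -0.79 and Hnrnpab 1426114_at by -0.87 (standard error 0.17, adjusted p = 0.00521), with no overlap between the antibodies. The Hnrnpab probe set read 11.57, 12.36, 12.05 and 11.64, against 12.94, 12.65, 12.91 and 12.59. For Prpf19 1444939_at was higher by 0.53 and 1460633_at lower by 0.43 on the log2 scale. Among the 267 probe sets of other splicing genes 76 were higher and 33 lower, and Lsm8, of the U6 ring, was lowest among those listed at -1.14.

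**Figure D5:**
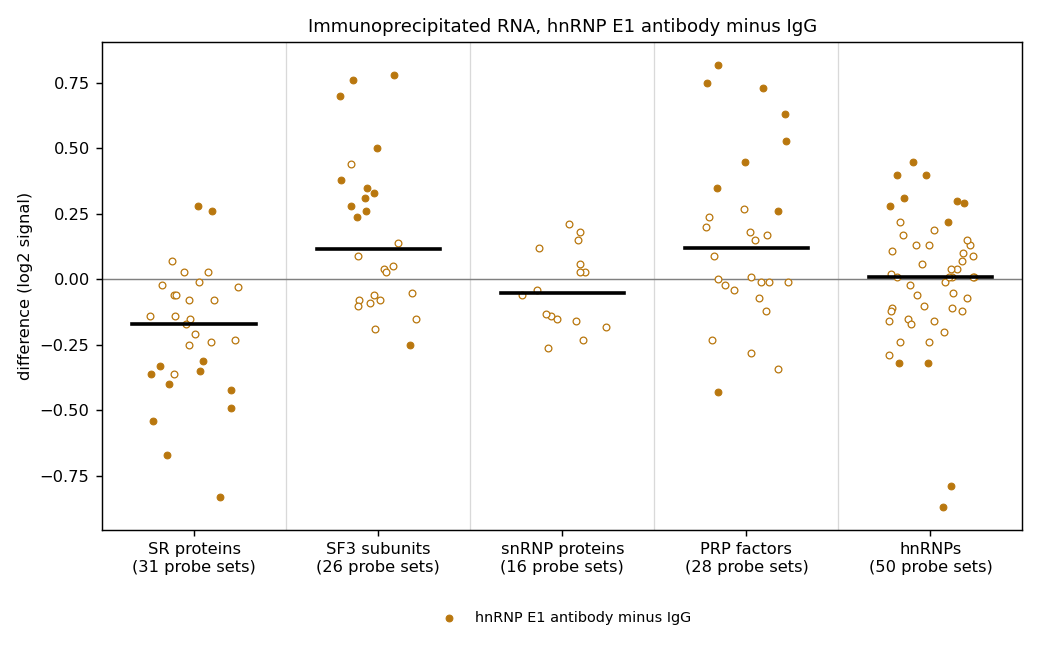
hnRNP E1 antibody minus IgG (log2 signal) in immunoprecipitated RNA of NMuMG cells for each member probe set by family. Filled points passed an adjusted p of 0.05 and lines are medians. The SF3 and PRP medians are 0.11 and 0.12, the SR median is -0.17, and no snRNP probe set passed.

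Probe sets of 1 gene did not always agree. Of the 39 genes with several kept probe sets, all probe sets had the same sign for 24 genes in total RNA of E1KD cells after TGFβ, for 28 genes in polysomal minus total RNA of treated E1KD cells, for 26 in untreated E1KD cells and for 33 in NMuMG cells of either treatment. In polysomal minus monosomal RNA they had the same sign for 33 genes in treated E1KD cells and for 25 in treated NMuMG cells. In the immunoprecipitates they did for 17. The median spread within a gene ran from 0.29 in the immunoprecipitates to 1.13 in polysomal minus total RNA of untreated E1KD cells among these comparisons.

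The members of highest mean signal over all 32 arrays were Snrpe (13.30) and Snrpg (13.12) of the Sm ring, Prpf19 1456531_x_at (12.93), Hnrnpc 1460240_a_at (12.91), Sf3b5 1437972_s_at (12.12) and Srsf1 1434972_x_at (11.87). Signals of different probe sets depend on their probes, so these values are no ranking of transcript amounts.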

How the data were processed

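The series holds 32 Affymetrix mouse expression arrays. For these the authors ran RMA in Affymetrix's Expression Console and deposited the resulting log2 signal of every probe set to 2 decimals, and array medians ran from 5.36 to 5.70. The authors filtered on MAS5 detection calls, which were not used here. Annotation came from GEO's platform table, and all 167 member probe sets were matched to RefSeq gene symbols. A further 16 probe sets with several symbols were left out.

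Tests were 2-sided and made by limma (version 3.58.1, under R 4.3.3, with lmFit and eBayes). The 24 arrays of total and pooled RNA shared 1 fit of 12 groups, and the 8 immunoprecipitation arrays had another, with Benjamini-Hochberg adjustment over 25432 probe sets and a threshold of 0.05. The procedure was tested on simulated data. Named members are the up to 5 largest increases and decreases that passed with non-overlapping arrays, genes called in both directions, all Srsf3 probe sets and the members of highest mean. Members outside that rule (Hnrnpa2b1, Snrpe, Snrpf, Snrpg, Snrpd3 1449629_s_at, Srsf1 1452430_s_at and the other splicing genes) were chosen after their values were seen. The members and gene lists were chosen with earlier results of these data known. Comparisons of polysomal with total RNA, and of 1 pool alone, were added after the untreated NMuMG monosomal arrays were seen to stand apart. Counts at a mean signal above 8, and without groups at or under 5.52, were also chosen after seeing the data. The number of arrays limits the precision. Descriptive values were computed in Python 3.11.15 (pandas 2.3.3 and numpy 2.4.6) and plotted by matplotlib 3.10.9. The alternatives were other scalings, filters and fits, other choices of probe set, and leaving out each array.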

Additional observations from a re-analysis of the deposited data

Results flagged for a closer look

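The change after TGFβ differed between E1KD and NMuMG cells, by limma's interaction term, for 9 named probe sets in total RNA. Most were named for a large change in 1 line on the same arrays, which favoured a difference in advance. Of all probe sets kept, 5.76% were higher and 5.69% lower in this interaction. The E1KD minus NMuMG difference of the changes was 1.56 for Srsf1 1428100_at (adjusted p = 0.0405), 1.29 for Srsf2 1415807_s_at (adjusted p = 0.000809), 0.89 for Hnrnpa0 (adjusted p = 0.0096) and 1.51 for Hnrnpdl 1428224_at (adjusted p = 0.00897). It was -0.69 for Hnrnpdl 1428225_s_at (adjusted p = 0.0105) and -0.75 for Prpf40b (adjusted p = 0.0083). For Srsf3 it was 0.74 on 1416150_a_at (adjusted p = 0.00209), 0.69 on 1434512_x_at (adjusted p = 0.0124) and -2.15 on 1438215_at (adjusted p = 2.09e-05). The last changed by -1.32 in E1KD cells and by 0.83 in NMuMG cells.

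The polysome shift after TGFβ differed between the lines for another 10, and all of these values include the untreated NMuMG monosomal arrays that stood apart. These too were named for a large shift in a line on the same arrays. Of all probe sets kept, 13.1% were higher and 23.5% lower in the interaction of the shifts. The E1KD minus NMuMG difference was -3.60 for Srsf1 1428100_at, -3.13 for Hnrnpm 1426698_a_at, -2.30 for Prpf38b 1452869_at and -0.92 for Hnrnph3 1455491_at. For Hnrnpdl it was -2.90 on 1428224_at, where every pool array but the untreated NMuMG monosomal ones lay under 5.52 so that the size has little meaning, and -1.81 on 1420093_s_at and -1.68 on 1456698_s_at. It was 1.92 for Sf3a1 1449333_at, 1.28 for Sf3b5 1451185_at and 1.39 for Snrpn 1432096_at. With polysomes alone, which leaves those arrays out, the difference was -0.40 for Srsf1, -0.58 for Hnrnpm, -0.50 for Prpf38b, 0.16 for Hnrnph3 and 0.06, 0.14 and 0.68 for the Hnrnpdl probe sets in the same order, none of which passed. It was 1.01 for Sf3a1 (adjusted p = 0.00232), 0.61 for Sf3b5 (adjusted p = 0.0106) and 0.44 for Snrpn (adjusted p = 0.173).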

How the results depend on the processing

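Named members that passed kept their direction under the other filters, scalings and fits, the replicate block and leaving out 1 array. The exception was centring on Actb and Gapdh. Not all of them still passed. With that centring 30 of their values kept the direction but no longer passed. This held for 7 with only the arrays compared in the fit, 6 without the filter and 4 with quantile normalization. It held for 2 or fewer in each of the other scalings and fits. Leaving out 1 array also lost some calls. These checks of named members did not cover polysomes alone or total in place of monosomal RNA. In the polysome-alone values given above, the difference between the shifts of the lines turned from -0.92 to 0.16 for Hnrnph3 1455491_at. It also turned positive for the Hnrnpdl probe sets named there, at 0.06, 0.14 and 0.68. Centring on Actb and Gapdh moved the median of all probe sets by up to -1.56 (polysomal minus total RNA of treated E1KD cells, where the member median became -2.87). It turned 7 values of polysomal minus total RNA: Prpf31 1453005_at to -0.05 in treated NMuMG cells, Snrpn to -0.27, Prpf40b to -0.49, Srsf2 1427816_at to -0.54 and Hnrnpul1 to -0.70 in treated E1KD cells, and Prpf31 to -0.09 and Sf3b4 1436784_x_at to -0.13 in untreated E1KD cells. Centring on the median of the probe sets kept moved the median of all probe sets in polysomal minus total RNA to 0.42 to 0.49. The member median then lay below it by the differences -1.30 and -0.88 in treated and untreated E1KD cells and -1.35 and -1.49 in treated and untreated NMuMG cells. The cause was not tested.

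Counts of members called moved by over 1.5 times as follows. Centred on Actb and Gapdh they were 1 for TGFβ in NMuMG total RNA, 131 for TGFβ in E1KD total RNA, 8 for E1KD against NMuMG cells, 39 for untreated E1KD polysomal minus monosomal RNA, 38 for the E1KD shift, 30 for TGFβ in NMuMG polysomes and 98 for the antibody. With only the arrays compared in the fit they were 16 for TGFβ in NMuMG total RNA, 94 for E1KD against NMuMG cells, 64 for the total RNA interaction, 53 for treated NMuMG polysomal minus monosomal RNA and 16 for TGFβ in NMuMG polysomes. With an intensity trend TGFβ in NMuMG total RNA gave 5 and the interaction 29, and without the filter TGFβ in NMuMG total RNA gave 1. With polysomes alone the shift gave 57 in NMuMG cells, 5 in E1KD cells and 28 for their interaction. With total in place of monosomal RNA, treated NMuMG cells gave 140 (17 higher and 123 lower) and untreated E1KD cells 125.

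Fewer probe sets were counted in 2 alternatives. Without the 68 members ending in _x_at, _s_at or _a_at, total RNA gave 29 calls for TGFβ in E1KD cells, 25 for E1KD against NMuMG cells and 10 for the interaction. Polysomal minus monosomal RNA gave 54 in treated and 31 in untreated E1KD cells, 45 in treated and 65 in untreated NMuMG cells and 60 between the untreated lines. The shift gave 30 in E1KD cells, 66 in NMuMG cells and 41 for the interaction. Polysomal minus total RNA gave 74, 75, 77 and 78 in treated and untreated E1KD and treated and untreated NMuMG cells, and TGFβ in NMuMG cells 30 in polysomes and 63 in monosomes. With 1 probe set for each of the 57 genes, total RNA gave 24 and 1 for TGFβ in E1KD and NMuMG cells, 23 between untreated lines and 9 for the interaction. Polysomal minus monosomal RNA gave 41, 29, 39 and 52 in the same order of conditions and 46 between the untreated lines, and the shift 28 and 50 in E1KD and NMuMG cells and 36 for the interaction. Polysomal minus total RNA gave 46, 46, 52 and 51, TGFβ in NMuMG cells 30 in polysomes and 47 in monosomes, and the antibody 22.

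Leaving out 1 array gave 38 to 42 calls for TGFβ in E1KD total RNA, 0 to 1 in NMuMG total RNA, 19 to 26 between untreated lines and 11 to 15 for the interaction. Polysomal minus total RNA gave 118 to 125, 117 to 120, 129 to 134 and 135 to 140 in the order above, and polysomal minus monosomal RNA 89 to 96, 44 to 51, 81 to 101 and 114 to 122, with 103 to 112 between untreated lines. The shift gave 42 to 57 in E1KD cells, 115 to 127 in NMuMG cells and 64 to 98 for the interaction, TGFβ in NMuMG cells 37 to 67 in polysomes and 111 to 127 in monosomes, and the antibody 32 to 46.

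Same-numbered samples did not pair, with correlations of deviations from -0.38 to 0.32 (median 0.06) over 66 pairs of groups. With the replicate number as a block, total RNA gave 63 calls for TGFβ in E1KD cells, 2 in NMuMG cells, 46 between untreated lines and 20 for the interaction. Signals near the median of 5.52 limit what can be ordered, and 2 arrays a group limit the precision.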
